A study of Mus musculus with 15 samples.

Results

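The 41 genes described here are mouse genes induced by interferon, from the factors that carry its signal to the proteins that restrict viruses and other invaders inside the cell. They were chosen by symbol from 24543 genes of the deposited RPKM table, and all 41 were found in it and passed the filter on low values (1 RPKM or more in 3 or more libraries), as did 13922 genes in all. RPKM, read density along a gene relative to library size, is a level per length, so levels of different genes can be set side by side. The choice was made with earlier results of these libraries known, and no source used here says which values entered it. The p-values below come from a fit over every gene that passed the filter and describe single genes. A direction shared by the 41 genes is therefore given as a description and is not independent evidence.

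Skin of K14CreERTM/LSL-SOX2 mice on a mixed background (129/SvEv/C57/B16 X CD-1) was sequenced in 15 libraries. Cre recombinase in this line is driven by the keratin 14 promoter, which is active in basal keratinocytes, and needs tamoxifen to act on the silenced SOX2 transgene. Unwounded skin of day 0 was given topical tamoxifen (5 mg/ml in 200 µl of ethanol, 3 libraries) or the ethanol vehicle alone (4 libraries), and both groups carried both alleles. Wounded skin of day 4 is held in 2 sets of 4 libraries, with the same alleles and the same agents. Their treatment names conflict. Wounded set B is named tamoxifen in the gene table and vehicle in the sample records, and wounded set A is named vehicle in the gene table and tamoxifen in the sample records. The 7 unwounded libraries have 1 name in every source. Differences between the sets are therefore given as set B minus set A, the order that follows the gene table, and turn their sign under the other naming. Which unwounded group is the partner of each wounded set depends on the naming too. Without a group of transgene-free mice given tamoxifen, effects of the drug and of SOX2 cannot be told apart. Day and wounding cannot be told apart either. The labels do not say that each library is a separate mouse, so the p-values measure the spread between these libraries, which may be technical.

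Interferons are secreted proteins that bind receptors on the cell surface and activate JAK kinases, which phosphorylate STAT proteins. Type I and type III interferons act mainly through a complex that holds STAT2 and IRF9 and binds the interferon-stimulated response element (ISRE), and interferon gamma acts mainly through the gamma-activated site (GAS). In skin these genes are expressed at a low level without infection by keratinocytes, fibroblasts and resident immune cells, and early wounds are known to draw in immune cells that make or answer to interferon.

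Promoters of many, but not all, of the genes held the letters of the ISRE, and fewer held those of the GAS. Windows from 250 bases before to 50 bases after the gene start were taken from RefSeq (build GRCm38.p6) for the 30 genes with an entry, some of which have more than 1 window, and a gene was counted once if any of its windows held the letters. The ISRE letters GAAANNGAAA, read on both strands with overlaps allowed, occurred for 19 of these 30 genes (63.3%), against 3.99% of all 27025 genes with a window and 3.93% of the 10673 of them that passed the filter. The GAS letters TTCNNNGAA occurred for 10 of the 30 (33.3%), against 9.55% of all genes with a window and 8.18% of those that passed the filter. By role, the ISRE letters were found for 7 of 7 GTPase genes, 8 of 13 effector genes, 2 of 2 sensor genes, 1 of 3 signalling genes and 1 of 5 of the rest. A match is a run of letters and not a shown binding site, and a window without one says only that these letters are not in it. 4 promoters are printed 5′ to 3′, with the matches in capitals, because they show the variety in the family: 3 overlapping ISRE words in Isg15 (chr4:156200769-156201068, minus strand), 2 separate words in Ifit1 (chr19:34640639-34640938, plus strand), 1 word in Gbp2 (chr3:142620413-142620712, plus strand) and a GAS next to an ISRE in Igtp (chr11:58199306-58199605, plus strand).
Isg15: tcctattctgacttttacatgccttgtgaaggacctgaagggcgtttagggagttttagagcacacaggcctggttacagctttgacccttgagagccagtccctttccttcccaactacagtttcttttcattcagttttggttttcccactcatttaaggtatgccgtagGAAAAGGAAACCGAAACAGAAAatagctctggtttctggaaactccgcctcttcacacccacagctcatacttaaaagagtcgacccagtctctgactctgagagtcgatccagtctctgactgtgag
Ifit1: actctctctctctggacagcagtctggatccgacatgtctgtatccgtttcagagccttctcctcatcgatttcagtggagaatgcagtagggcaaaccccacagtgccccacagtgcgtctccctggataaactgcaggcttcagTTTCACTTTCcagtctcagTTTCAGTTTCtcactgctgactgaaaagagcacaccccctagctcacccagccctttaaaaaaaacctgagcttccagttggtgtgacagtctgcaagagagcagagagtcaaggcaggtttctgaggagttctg
Gbp2: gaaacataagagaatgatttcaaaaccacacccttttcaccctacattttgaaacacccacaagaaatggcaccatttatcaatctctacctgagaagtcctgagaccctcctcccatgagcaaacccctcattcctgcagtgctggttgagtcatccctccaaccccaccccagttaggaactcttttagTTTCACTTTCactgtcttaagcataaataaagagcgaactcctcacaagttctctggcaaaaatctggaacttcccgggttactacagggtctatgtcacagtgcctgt
Igtp: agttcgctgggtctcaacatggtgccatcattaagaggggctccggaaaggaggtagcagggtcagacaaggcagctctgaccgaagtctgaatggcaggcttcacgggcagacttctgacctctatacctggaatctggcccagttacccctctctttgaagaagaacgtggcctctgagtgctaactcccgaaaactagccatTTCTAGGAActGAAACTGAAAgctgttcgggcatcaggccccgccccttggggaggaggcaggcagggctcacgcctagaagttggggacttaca
The ISRE words of Isg15 begin 78, 72 and 66 bases before the gene start, and those of Ifit1 begin 104 and 85 bases before it. In Gbp2 the word begins 59 bases before the start. In Igtp the GAS begins 45 bases and the ISRE 34 bases before the start, so that only 2 bases part them.

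Unwounded tamoxifen libraries held 48927814 to 52246033 alignments and unwounded vehicle libraries 57271879 to 63992429, with 61975321 to 75102345 for wounded set B and 39277860 to 67782635 for wounded set A. By the exon lengths of GENCODE M21, the fewest reads behind any value of the 41 genes were about 34 (Oasl1 in tamoxifen replicate 2), and in the tamoxifen group, where levels are low, the spread of some genes is no larger than counting error. The targeted gene did not separate the groups: Sox2 had 1.98 to 2.89 RPKM in unwounded tamoxifen skin against 1.85 to 2.57 RPKM in unwounded vehicle skin, and 2.07 to 2.64 RPKM in set B against 1.87 to 3.82 RPKM in set A. The sample sheet lists 3 to 5 gfp reads in unwounded tamoxifen libraries and 5 to 9 in unwounded vehicle libraries. No source used here says whether the transgene's transcript is counted under Sox2.

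In unwounded skin all 41 genes were lower with tamoxifen than with vehicle. The median log2 difference over the 41 was -1.98 (from -3.32 for Oasl2 to -0.57 for Isg20), and the group means differed by a median of 5.78-fold. With limma, 34.7% of the 13922 genes tested were lower in this comparison and 69.4% differed in either direction, so that most genes tested differed between these groups. The lowest vehicle library was above the highest tamoxifen library for 41 of the 41 genes, and 34.2% of all genes tested were likewise lower without overlap. These are bulk samples, in which fewer cells of a type and less RNA per cell cannot be told apart. The mean of log2(RPKM + 0.5) over the 41 genes was 1.52, 1.65 and 1.75 in the tamoxifen libraries, against 3.63, 4.001, 4.10 and 3.43 in the vehicle libraries. Markers of other cells moved with these groups. The 12 macrophage and monocyte markers summed to 266 to 344 RPKM with tamoxifen against 1741 to 3063 RPKM with vehicle. The 10 genes of the hair shaft and inner root sheath summed to 16933 to 26677 RPKM with tamoxifen against 11.2 to 24.0 RPKM with vehicle. Their part in the differences below was not tested. With libraries rescaled by their median ratio over genes, in place of their total, the median log2 difference of the 41 genes was -2.002.

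**Figure D1:**
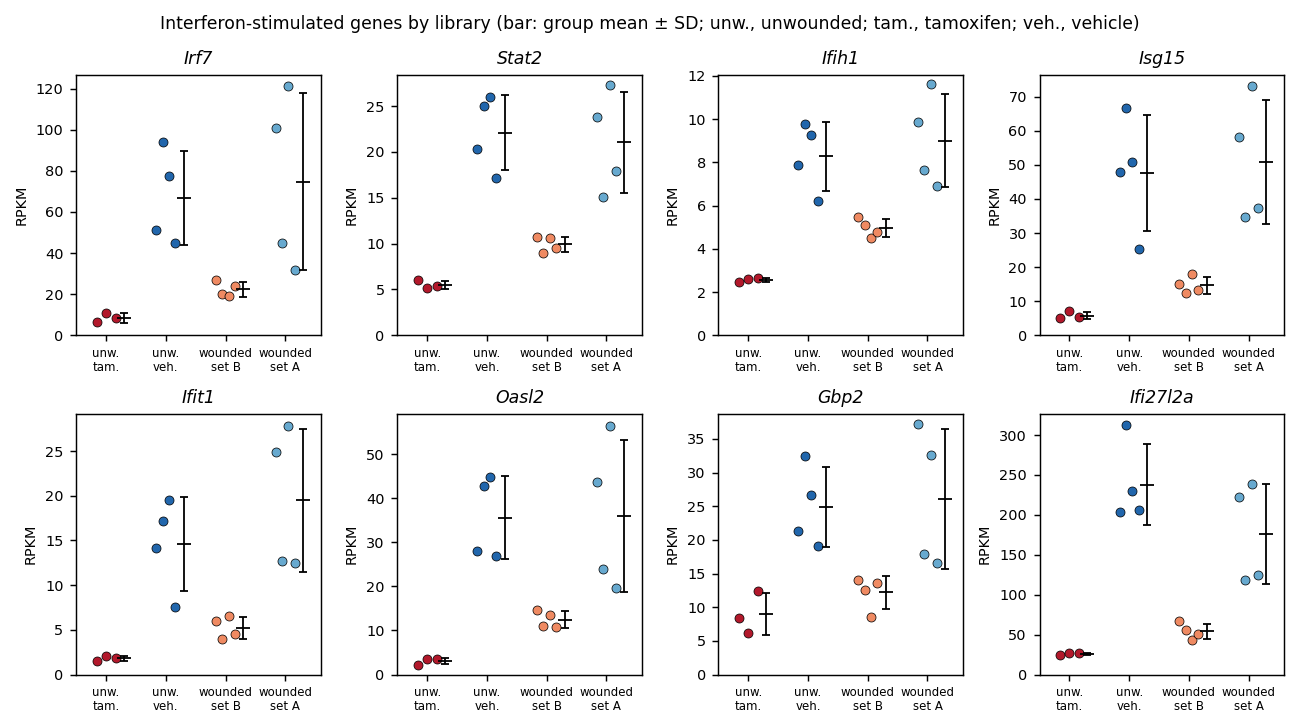
RPKM of 8 of the interferon-stimulated genes in each of the 15 libraries, on linear axes from 0. Points are libraries and bars beside them the group mean ± SD, with 3 unwounded tamoxifen libraries and 4 in each other group; the unwounded tamoxifen group has the lowest mean in all 8 genes, and set A has the largest SD.

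Among the signalling genes, Irf7, the transcription factor that amplifies interferon production, had 6.21, 11.02 and 8.38 RPKM in the tamoxifen libraries against 51.0, 93.8, 77.6 and 44.9 RPKM in the vehicle libraries. Every tamoxifen library was far below every vehicle library, with a log2 difference of -2.87 ± 0.40 (SE) and an adjusted p of 2.62e-05 from limma. Stat2 and Irf9, whose products are parts of the complex that binds the ISRE, differed less. Stat2 had 5.99, 5.15 and 5.33 RPKM with tamoxifen against 20.4, 25.0001, 26.0 and 17.1 RPKM with vehicle. Irf9 had 9.11, 9.03 and 10.1 RPKM with tamoxifen against 28.0, 33.3, 28.9 and 24.1 RPKM with vehicle. The treatments did not overlap for either gene, with log2 differences of -1.90 ± 0.18 for Stat2 (adjusted p = 7.28e-07) and -1.54 ± 0.13 for Irf9 (adjusted p = 2.08e-07). Usp18, which strips ISG15 from proteins and damps the receptor, had 1.34, 2.05 and 2.41 RPKM with tamoxifen against 12.2, 14.2, 13.98 and 7.44 RPKM with vehicle (log2 difference -2.34 ± 0.30, adjusted p = 1.08e-05).

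The 4 sensors of foreign nucleic acid were lower with a median log2 difference of -2.06. Ddx58 encodes RIG-I, a sensor of viral RNA ends, and had 3.43, 3.86 and 3.26 RPKM with tamoxifen against 10.95, 12.8, 14.2 and 9.79 RPKM with vehicle. Ifih1 encodes MDA5, a sensor of long double-stranded RNA, and had 2.45, 2.59 and 2.64 RPKM with tamoxifen against 7.88, 9.76, 9.25 and 6.20 RPKM with vehicle. Zbp1, a sensor of Z-form nucleic acid that can start necroptosis, had 1.74, 2.45 and 2.48 RPKM with tamoxifen against 13.2, 21.4, 22.4 and 13.3 RPKM with vehicle. The groups did not overlap for any of the 3, with log2 differences of -1.62 ± 0.21 for Ddx58 (adjusted p = 1.18e-05), -1.501 ± 0.16 for Ifih1 (adjusted p = 2.67e-06) and -2.70 ± 0.37 for Zbp1 (adjusted p = 2.27e-05). The remaining sensor, Dhx58, which encodes the RIG-I relative LGP2, averaged 1.35 ± 0.344 RPKM with tamoxifen and 9.998 ± 2.55 RPKM with vehicle (SD, n = 3 and 4).

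The 16 antiviral effectors had the largest median of the 5 roles, with a log2 difference of -2.61 and group means that differed by a median of 9.10-fold. Isg15, a ubiquitin-like protein that is joined to other proteins, had 4.97, 7.02 and 5.37 RPKM with tamoxifen against 47.9, 66.7, 50.9 and 25.3 RPKM with vehicle. Ifit1, which binds foreign RNA and blocks its translation, had 1.47, 2.05 and 1.88 RPKM with tamoxifen against 14.2, 17.2, 19.6 and 7.53 RPKM with vehicle. Ifit3 had 2.77, 3.38 and 3.50 RPKM with tamoxifen against 17.4, 23.0, 36.0 and 14.97 RPKM with vehicle. In each of these the vehicle libraries differed among themselves by more than the tamoxifen libraries did, and still none came down to the tamoxifen level. Their log2 differences were -2.87 ± 0.30 for Isg15, -2.64 ± 0.33 for Ifit1 and -2.58 ± 0.40 for Ifit3 (adjusted p = 1.85e-06, 8.97e-06 and 6.37e-05). Ifit1, Ifit2 and Ifit3 lie together on chromosome 19 (Ifit1 at chr19:34640871-34650009 on mm10, by GENCODE M21), and a close copy of Ifit3, Ifit3b, is listed separately, so the division of reads between the pair is uncertain.

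The oligoadenylate synthetases, which make the messenger that activates RNase L, and their relatives Oasl1 and Oasl2 lie on chromosome 5 and were among the genes with the largest differences. Oasl2 had 2.20, 3.55 and 3.48 RPKM with tamoxifen against 28.0, 42.8, 44.7 and 26.9 RPKM with vehicle. Oas1a had 0.940, 2.59 and 1.88 RPKM with tamoxifen against 18.8, 26.4, 21.96 and 17.7 RPKM with vehicle. For both, the highest tamoxifen library stayed far below the lowest vehicle library, with log2 differences of -3.32 ± 0.32 for Oasl2 (adjusted p = 8.14e-07) and -3.29 ± 0.28 for Oas1a (adjusted p = 3.36e-07). Oas1a has near-identical neighbours, so its share of reads is uncertain. Mx1, a dynamin-like GTPase that traps viral nucleoproteins, had 0.319, 0.495 and 0.530 RPKM with tamoxifen against 5.04, 6.05, 8.76 and 4.43 RPKM with vehicle. Rsad2 encodes viperin, which makes a chain-terminating nucleotide, and had 0.403, 0.450 and 0.411 RPKM with tamoxifen against 3.83, 3.98, 7.18 and 2.70 RPKM with vehicle. Bst2 encodes tetherin, which holds budding virions at the membrane, and had 7.48, 11.2 and 12.1 RPKM with tamoxifen against 64.4, 95.5, 73.1 and 49.5 RPKM with vehicle. No library of 1 treatment came near the other in these 3 genes, and the fold between group means was 13.5 for Mx1, 10.5 for Rsad2 and 6.88 for Bst2 (adjusted p = 2.75e-06, 5.67e-05 and 2.22e-06). On the log2(RPKM + 0.5) scale differences of such low genes are understated: Mx1 came to -2.76 and Rsad2 to -2.34.

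Isg20, an exonuclease that degrades RNA, stood apart from the other effectors. It had 2.97, 2.74 and 3.67 RPKM with tamoxifen against 4.19, 6.07, 5.48 and 3.94 RPKM with vehicle. The groups nearly touched, and the log2 difference of -0.57 ± 0.23 (adjusted p = 0.0390) was the smallest of the 41. Its adjusted p rose above 0.05 when tamoxifen replicate 2 (0.0912) or 3 (0.121), or vehicle replicate 2 (0.101) or 3 (0.0866), was left out.

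The 8 guanylate-binding proteins and immunity-related GTPases, which attack the vacuoles of intracellular parasites and bacteria and are known to answer strongly to interferon gamma, were lower with a median log2 difference of -1.59, and 3.26-fold by group means. Gbp2 had 8.39, 6.24 and 12.4 RPKM with tamoxifen against 21.4, 32.5, 26.7 and 19.1 RPKM with vehicle. Gbp5 had 1.46, 0.955 and 1.42 RPKM with tamoxifen against 4.83, 6.28, 6.49 and 4.17 RPKM with vehicle. Igtp had 5.55, 3.57 and 9.001 RPKM with tamoxifen against 14.2, 20.3, 17.6 and 11.02 RPKM with vehicle. In all 3 the groups kept apart, although tamoxifen replicate 4 came close to the vehicle range in Igtp, and the log2 differences were -1.44 ± 0.30, -1.73 ± 0.25 and -1.36 ± 0.31 (adjusted p = 0.000763, 3.3e-05 and 0.00134). Iigp1 had 5.39, 2.59 and 7.22 RPKM with tamoxifen against 7.60, 11.997, 14.03 and 7.37 RPKM with vehicle, a difference of -0.997 ± 0.37 (adjusted p = 0.0262). That call was lost without tamoxifen replicate 3 (adjusted p = 0.157) and without vehicle replicate 2 (0.0612) or 3 (0.0737). Tamoxifen replicate 3 was the lowest of its group for Gbp2, Gbp5, Igtp and Iigp1, while it was the highest of its group for Irf7, Isg15, Ifit1, Oas1a and Oasl2. The annotated spans of Igtp and Irgm2 overlap on the same strand of chromosome 11, so the division of reads between this pair is uncertain where they overlap.

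Of the 9 genes in the remaining group, Ifi27l2a, a small protein of the ISG12 family, had the highest level of the 41 in every group. It had 24.7, 27.1 and 26.7 RPKM with tamoxifen against 203, 312, 229.9 and 206 RPKM with vehicle. The tamoxifen libraries lay within a narrow band and the vehicle libraries many times higher (log2 difference -3.14 ± 0.24, adjusted p = 1.29e-07). Rtp4, a receptor chaperone that also inhibits flaviviruses, had 3.69, 3.96 and 3.32 RPKM with tamoxifen against 26.8, 38.5, 40.8 and 29.1 RPKM with vehicle (-3.02 ± 0.30, adjusted p = 1.14e-06). Xaf1, a binder of the apoptosis inhibitor XIAP, had 2.97, 3.74 and 3.61 RPKM with tamoxifen against 11.3, 14.1, 13.4 and 8.50 RPKM with vehicle (-1.63 ± 0.22, adjusted p = 2.1e-05). Trim30a, a TRIM protein known to restrain inflammatory signalling in mice, averaged 1.97 ± 0.372 RPKM with tamoxifen and 14.7 ± 3.49 RPKM with vehicle (SD, n = 3 and 4). The remaining 5 of this group (Ifi44, Ifi35, Cmpk2, Parp9 and Parp14) had log2 differences between -2.15 for Ifi44 and -1.35 for Ifi35.

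**Figure D2:**
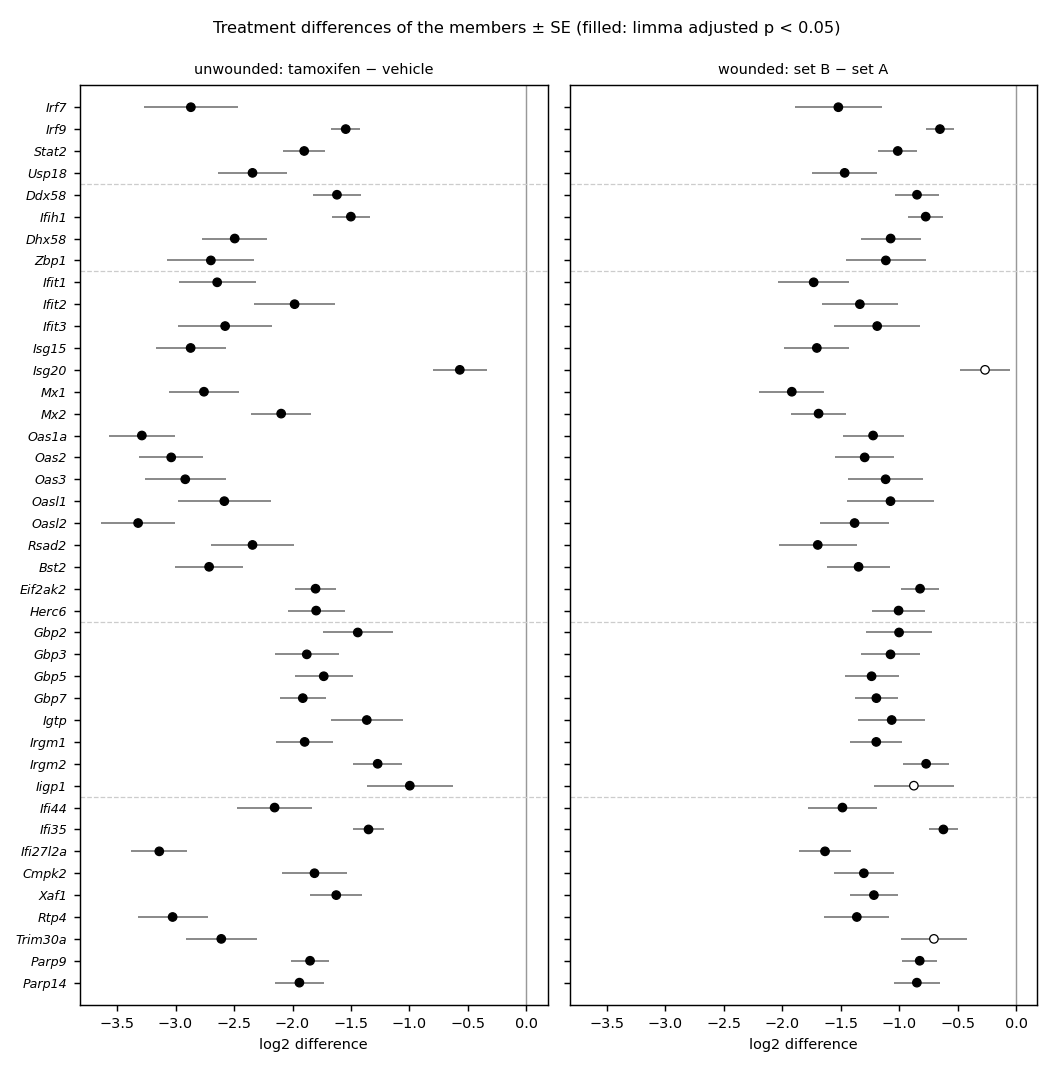
Log2 difference ± SE of each of the 41 genes, tamoxifen minus vehicle in unwounded skin at the left and wounded set B minus wounded set A at the right, with dashed lines between the roles. Filled points passed an adjusted p of 0.05 by limma. All points lie below 0, and Isg20, Iigp1 and Trim30a are open at the right.

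Between the wounded sets most of the genes were lower in set B. With limma, 38 of the 41 were lower in set B than in set A and none was higher, against 15.6% of all genes tested that were lower and 31.1% that differed in either direction. The median log2 difference was -1.19 (from -1.92 for Mx1 to -0.27 for Isg20). For 36 of the 41 genes every set B library was below every set A library, as was so for 14.6% of all genes tested. Under the names of the sample records the same values read as higher with tamoxifen. The count ran from 33 without set A replicate 1 to 41 without set A replicate 4. Beside these values, the macrophage and monocyte markers summed to 1264 to 1756 RPKM in set B against 1603 to 3547 RPKM in set A. The hair shaft and inner root sheath genes summed to 3201 to 6450 RPKM in set B against 11.6 to 1606 RPKM in set A, where replicate 2 was highest. Their part was not tested here either.

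Irf7 had 27.0, 19.9, 19.1 and 23.8 RPKM in set B against 101, 45.0, 121 and 31.6 RPKM in set A. Usp18 had 3.35, 3.11, 3.70 and 3.12 RPKM in set B against 14.8, 6.80, 15.1 and 6.52 RPKM in set A. Set B was compact in both, while set A split into replicates 1 and 3, which were high, and replicates 2 and 4, which were low but still above set B. Log2 differences were -1.52 ± 0.37 for Irf7 (adjusted p = 0.00732) and -1.47 ± 0.28 for Usp18 (adjusted p = 0.00142). Stat2 averaged 9.94 ± 0.823 RPKM in set B and 21.05 ± 5.54 RPKM in set A, and Irf9 averaged 15.4 ± 1.14 RPKM in set B and 24.6 ± 4.23 RPKM in set A (SD, n = 4 each). Both were lower in set B (Stat2 -1.01 ± 0.17, adjusted p = 0.000541, and Irf9 -0.65 ± 0.12, adjusted p = 0.000992).

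All 4 sensors were lower in set B. Ddx58 had 6.83, 6.57, 7.004 and 5.86 RPKM in set B against 14.4, 10.3, 18.3 and 8.04 RPKM in set A. Ifih1 had 5.48, 5.11, 4.50 and 4.76 RPKM in set B against 9.85, 7.64, 11.6 and 6.89 RPKM in set A. Both kept apart between the sets (-0.85 ± 0.19 for Ddx58 and -0.77 ± 0.15 for Ifih1, adjusted p = 0.00468 and 0.00182). Zbp1 had 9.22, 7.51, 6.52 and 7.20 RPKM in set B against 29.3, 10.4, 29.6 and 8.96 RPKM in set A. The highest set B library of Zbp1 reached past the lowest set A library, and its call (-1.11 ± 0.34, adjusted p = 0.0250) was lost without set A replicate 1 (adjusted p = 0.0841) or 3 (0.0787) and without set B replicate 2 (0.0543), 3 (0.0612) or 4 (0.0596), and with the replicate block fitted to these sets alone (0.0617).

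The largest falls were among the effectors. Mx1 had 2.50, 1.57, 2.31 and 2.29 RPKM in set B against 14.04, 6.23, 14.8 and 6.08 RPKM in set A. Ifit1 had 6.03, 3.92, 6.51 and 4.52 RPKM in set B against 24.9, 12.7, 27.8 and 12.46 RPKM in set A. Isg15 had 15.01, 12.497, 18.0 and 13.2 RPKM in set B against 58.1, 34.7, 73.1 and 37.5 RPKM in set A. The sets did not overlap in these genes, and the differences were -1.92 ± 0.28 for Mx1, -1.73 ± 0.30 for Ifit1 and -1.70 ± 0.28 for Isg15 (adjusted p = 0.000260, 0.000920 and 0.000531). Rsad2 had 1.88, 1.16, 1.93 and 2.69 RPKM in set B against 10.9, 4.91, 11.8 and 3.96 RPKM in set A, and Bst2 had 33.1, 24.6, 25.9 and 22.7 RPKM in set B against 91.5, 48.6, 102 and 46.2 RPKM in set A. For Oasl2 the values were 14.6, 10.9, 13.6 and 10.7 RPKM in set B against 43.8, 24.0, 56.5 and 19.7 RPKM in set A. These 3 were again apart between the sets (-1.70 ± 0.33 for Rsad2, -1.35 ± 0.27 for Bst2 and -1.38 ± 0.29 for Oasl2, adjusted p = 0.00180, 0.00202 and 0.00302). Oas1a averaged 9.94 ± 1.67 RPKM in set B and 24.9 ± 9.36 RPKM in set A (-1.22 ± 0.26, adjusted p = 0.00317).

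The calls of 3 further effectors rested on single libraries. Ifit3 had 8.75, 5.49, 7.03 and 6.52 RPKM in set B against 27.8, 10.4, 29.1 and 8.15 RPKM in set A, and its highest set B library passed the lowest set A library (-1.19 ± 0.37, adjusted p = 0.0258). The call was lost without set A replicate 1 (0.0864) or 3 (0.0810) and without set B replicate 2 (0.0718) or 4 (0.0608). Oasl1, at -1.07 ± 0.37 (adjusted p = 0.0405), lost its call without any 1 of the set B libraries (0.0576 to 0.0885), without set A replicate 1 (0.127) or 3 (0.122), without vehicle replicate 4 (0.0514) and with the replicate block fitted to these sets alone (0.0703). Oas3, at -1.12 ± 0.32 (adjusted p = 0.0169), lost it without set A replicate 1 (0.0573) or set B replicate 2 (0.0508). Isg20 had 5.90, 4.78, 5.40 and 5.38 RPKM in set B against 8.39, 5.68, 9.52 and 3.95 RPKM in set A, which overlapped (-0.27 ± 0.21, adjusted p = 0.369, and 0.0407 without set A replicate 4).

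Of the GTPases 7 of 8 were lower in set B. Gbp5 had 2.37, 2.02, 1.40 and 2.26 RPKM in set B against 8.28, 4.03, 6.67 and 3.59 RPKM in set A. Igtp had 7.97, 6.76, 5.69 and 6.02 RPKM in set B against 20.4, 9.83, 19.4 and 10.5 RPKM in set A. Both kept apart between the sets (-1.24 ± 0.23 for Gbp5 and -1.06 ± 0.28 for Igtp, adjusted p = 0.00136 and 0.0120). Gbp2 had 14.1, 12.6, 8.59 and 13.6 RPKM in set B against 37.2, 17.9, 32.6 and 16.5 RPKM in set A (-1.001 ± 0.28, adjusted p = 0.0149, 0.0516 without set A replicate 1, and 0.0527 with the replicate block fitted to these sets alone). Iigp1 had 5.65, 5.23, 3.51 and 3.71 RPKM in set B against 13.4, 5.61, 12.4 and 5.61 RPKM in set A. The lowest set A libraries of Iigp1 lay just under the highest set B library, and the difference of -0.87 ± 0.34 missed the threshold (adjusted p = 0.0661), passing it without set A replicate 2 (0.0366) or 4 (0.0322) or tamoxifen replicate 3 (0.0448).

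Ifi27l2a had 66.6, 56.2, 43.7 and 50.5 RPKM in set B against 222, 119, 238 and 125 RPKM in set A, and Rtp4 had 14.96, 11.1, 11.7 and 11.3 RPKM in set B against 46.5, 25.4, 52.1 and 17.1 RPKM in set A. The sets kept apart in both genes (-1.63 ± 0.22 for Ifi27l2a and -1.36 ± 0.28 for Rtp4, adjusted p = 0.000164 and 0.00233). Xaf1 had 5.77, 4.20, 3.71 and 4.29 RPKM in set B against 14.3, 8.57, 14.7 and 8.03 RPKM in set A (-1.22 ± 0.21, adjusted p = 0.000696). Trim30a had 11.04, 8.42, 11.2 and 8.44 RPKM in set B against 21.2, 12.02, 28.4 and 9.12 RPKM in set A. Set A replicate 4 of Trim30a fell inside the set B range, and the difference of -0.70 ± 0.28 missed the threshold (adjusted p = 0.0741). It passed without set A replicate 2 (0.0491) or 4 (0.00897), and with the replicate number as a block (0.0397), a fit that used the pairing of the sets by number, but not when the block was fitted to these sets alone.

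Setting wounded skin against unwounded skin gave different counts for set B and set A. Against unwounded tamoxifen skin, wounded set B was higher in 31 of the 41 genes and lower in none, where 25.9% of all genes tested were higher and 54.8% differed in either direction. Under the names of the sample records the tamoxifen pair is set A against unwounded tamoxifen skin, with 40 of the 41 genes and 4356 of the 13922 genes tested higher and a median of 2.14. For set B the median log2 difference was 0.89, and 35 of the 41 genes were higher without overlap, against 26.7% of all genes tested. The effectors had 15 of 16 called, the sensors 4 of 4, the signalling genes 3 of 4 and the remaining group 7 of 9, and the GTPases 2 of 8. No test compared the roles. Left-out libraries moved the count of 31 between 25 and 33.

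On the log2(RPKM + 0.5) scale Oas1a rose most, to 9.94 ± 1.67 RPKM in set B against 1.80 ± 0.829 RPKM in unwounded tamoxifen skin (SD, n = 4 and 3, 2.24 ± 0.28, adjusted p = 2.03e-05). Trim30a had 11.04, 8.42, 11.2 and 8.44 RPKM in set B against 1.54, 2.14 and 2.23 RPKM in unwounded tamoxifen skin, with a difference of 2.06 ± 0.30 (adjusted p = 8.04e-05). Oas3 had 3.43, 2.66, 3.75 and 3.39 RPKM in set B against 0.352, 0.572 and 0.434 RPKM in unwounded tamoxifen skin, with a difference of 1.998 ± 0.34 (adjusted p = 0.000280). In both genes each set B library was several times above each tamoxifen library, and by the ratio of group means Oas3 (7.31) and Oasl1 (5.91) came before Oas1a (5.51). Smaller rises were seen for Irf7 (1.37 ± 0.40, adjusted p = 0.0109), Isg15 (1.27 ± 0.30, adjusted p = 0.00279) and Bst2 (1.35 ± 0.29, adjusted p = 0.00149). Ifi27l2a, at 54.2 ± 9.69 RPKM in set B and 26.2 ± 1.32 RPKM in unwounded tamoxifen skin, differed by 1.02 ± 0.24 (adjusted p = 0.00266).

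Among the GTPases only Gbp7 (0.66 ± 0.20, adjusted p = 0.0111) and Irgm1 (0.64 ± 0.24, adjusted p = 0.0373) passed. Gbp7 was lost without tamoxifen replicate 3 (0.0613), and Irgm1 without tamoxifen replicate 2 (0.104) or 3 (0.121) or any 1 set B library (0.0504 to 0.0843). Igtp averaged 6.61 ± 1.01 RPKM in set B and 6.04 ± 2.75 RPKM in unwounded tamoxifen skin, a difference of 0.19 ± 0.31 (adjusted p = 0.612), and Iigp1 was the only gene below 0, at -0.07 ± 0.37 (adjusted p = 0.879). Gbp2, Gbp5, Irgm2 and Xaf1 also overlapped between these groups. Outside the GTPases, the calls of Ifit3, Herc6, Ifi44 and Isg20 were lost when 1 of several libraries was left out, with the highest adjusted p at 0.127 for Ifit3 and 0.0837 for Ifi44 (both without tamoxifen replicate 2), 0.0796 for Herc6 (without tamoxifen replicate 4) and 0.0678 for Isg20 (without tamoxifen replicate 3). Ifit2 (0.0540) and Usp18 (0.0698) missed the threshold by adjusted p although their libraries did not overlap. The fit takes 1 spread per gene from all 4 groups, set A among them, and Usp18 passed without set A replicate 4 (0.0486).

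Against unwounded vehicle skin, wounded set A was neither higher nor lower in any of the 41 genes by limma's adjusted p, while 39.8% of all genes tested differed. At an unadjusted p under 0.05 there were 2 genes. Under the names of the sample records the vehicle pair is set B against unwounded vehicle skin, with 38 of the 41 genes and 3975 of the 13922 genes tested lower and a median of -1.14. For set A the median log2 difference was -0.01, and the libraries overlapped for each of the 41 genes, where 18.6% of all genes tested were higher and 17.1% lower without overlap. Mx1 had 14.04, 6.23, 14.8 and 6.08 RPKM in set A against 5.04, 6.05, 8.76 and 4.43 RPKM in unwounded vehicle skin, with a difference of 0.64 ± 0.28 and the lowest adjusted p of the 41 (0.0830). Rsad2 had 10.9, 4.91, 11.8 and 3.96 RPKM in set A against 3.83, 3.98, 7.18 and 2.70 RPKM in unwounded vehicle skin (0.71 ± 0.33, adjusted p = 0.107). At the other end, Ifi27l2a had 222, 119, 238 and 125 RPKM in set A against 203, 312, 229.9 and 206 RPKM in unwounded vehicle skin (-0.48 ± 0.22, adjusted p = 0.101). Calls here moved with single libraries: up to 3 genes passed as higher when 1 was left out, namely Mx1 (0.0257), Rsad2 (0.0271) and Isg20 (0.0113) without set A replicate 4. Without set A replicate 2, Mx1 (0.0332) and Mx2 (0.0267) passed as higher, and without vehicle replicate 3, Mx1 (0.0397) and Rsad2 (0.0403) did. Without set A replicate 1 (0.0497) or 3 (0.0306), Ifi27l2a passed as lower. A p that misses the threshold does not show that the levels are equal: the SE of these log2 differences ran from 0.12 to 0.37 over the 41 genes.

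**Figure D3:**
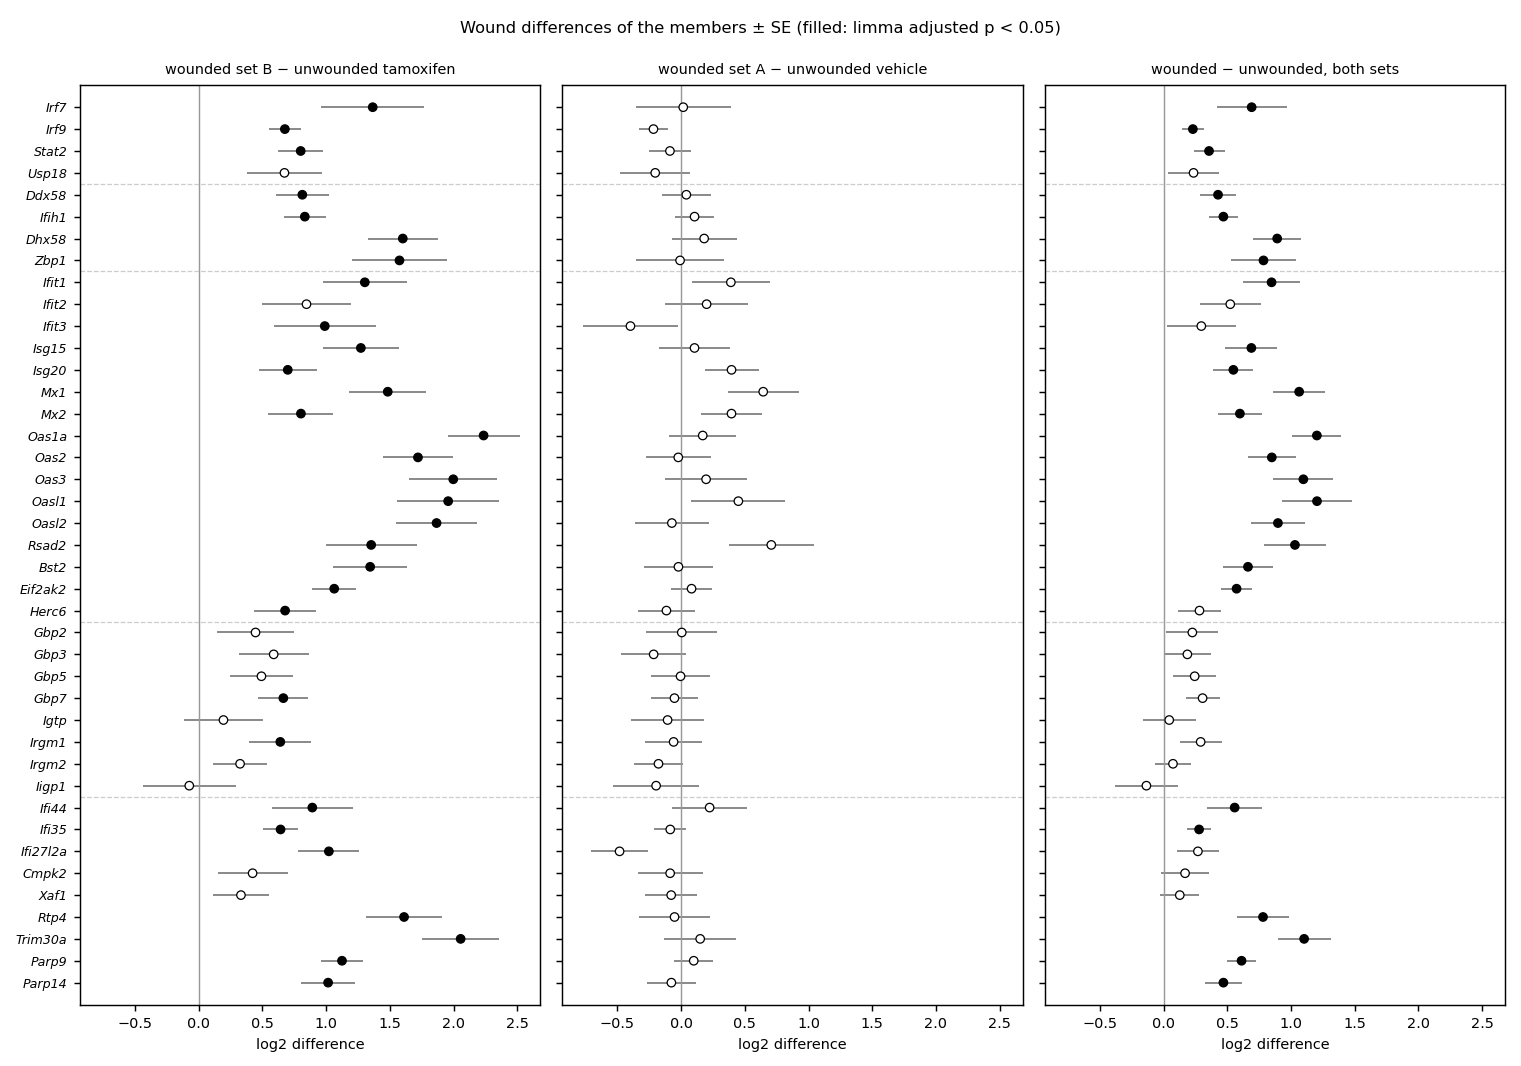
Log2 difference ± SE of each of the 41 genes for wounded set B minus unwounded tamoxifen skin, wounded set A minus unwounded vehicle skin, and wounded minus unwounded over both sets, on 1 scale. Filled points passed an adjusted p of 0.05 by limma. Filled points are frequent at the left (31 genes) and at the right (26 genes) and absent in the middle.

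Averaged over both sets, a contrast that does not depend on which treatment name is right, wounded skin was higher in 26 of the 41 genes and lower in none, where 26.9% of all genes tested were higher and 29.5% lower. The median log2 difference was 0.52. This average joins unequal parts. The median was 0.89 for set B against unwounded tamoxifen skin and -0.01 for set A against unwounded vehicle skin. Under the names of the sample records the parts had opposite signs: 2.14 for set A against unwounded tamoxifen skin and -1.14 for set B against unwounded vehicle skin. The average therefore does not show a rise in each set. Oasl1 (1.20 ± 0.27, adjusted p = 0.00196), Oas1a (1.20 ± 0.19, adjusted p = 0.000137) and Trim30a (1.10 ± 0.21, adjusted p = 0.000508) had the largest rises. By role, 13 of 16 effectors, 4 of 4 sensors, 3 of 4 signalling genes and 6 of 9 of the remaining group passed, and 0 of 8 GTPases did. The GTPases lay between -0.13 for Iigp1 and 0.31 for Gbp7, and 1 of the 8 had an unadjusted p under 0.05. Leaving out single libraries gave counts of 23 to 30. Irf7 (adjusted p = 0.0447) was lost in 10 of these fits, Ifi44 in 9 and Irf9 in 8, and Stat2 was lost without tamoxifen replicate 3 (0.0513).

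The difference between the wound differences was tested directly. It is the wound difference of set B minus that of set A, so that a positive value means a larger rise, or a smaller fall, from unwounded tamoxifen skin to set B. It uses the same libraries as the comparisons above and adds no independent support. By limma 21 of the 41 genes had a positive value and none a negative one past the threshold, against 19.7% of all genes tested that were positive and 20.2% that were negative. The median was 0.88. These values rest on the gene table's names: under those of the sample records 41 of the 41 genes and 4722 of all genes tested were positive, with a median of 3.31. Oas1a had the largest value (2.07 ± 0.38, adjusted p = 0.00111), followed by Oasl2 (1.94 ± 0.43, adjusted p = 0.00335) and Trim30a (1.91 ± 0.41, adjusted p = 0.00296). The sensors passed in 4 of 4 cases, the effectors in 8 of 16, the remaining group in 6 of 9, the signalling genes in 2 of 4 and the GTPases in 1 of 8. Gbp7 (adjusted p = 0.0469), Ddx58 (0.0434), Oasl1 (0.0404) and Isg15 (0.0358) lost their calls in 9 or more of the fits that left out 1 library, and Zbp1 without tamoxifen replicate 2 (0.0534).

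Taking the 4 groups by mean RPKM, 39 of the 41 genes had the same lower pair: unwounded tamoxifen skin lowest, then wounded set B. In 25 of these unwounded vehicle skin came next and wounded set A was highest, and in 14 the top pair was reversed. Since no gene differed past the threshold between those top 2 groups, the order of the pair is within their spread. Iigp1 was the exception with set B (4.53 ± 1.07 RPKM) below unwounded tamoxifen skin (5.06 ± 2.33 RPKM), a difference within their spread. Isg20 was the exception with unwounded vehicle skin (4.92 ± 1.02 RPKM) below set B (5.37 ± 0.460 RPKM) in mean RPKM, with overlapping SDs. In unwounded vehicle skin the levels of the 41 genes ran from 3.01 ± 0.950 RPKM for Mx2 to 238 ± 51.0 RPKM for Ifi27l2a, with Bst2 (70.6 ± 19.2 RPKM), Irf7 (66.8 ± 22.9 RPKM) and Isg15 (47.7 ± 17.0 RPKM) next to the top.

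The genes also moved together from library to library within wounded set A and unwounded vehicle skin. In wounded set A, replicates 1 and 3 were above the set's mean for 41 of the 41 genes and replicates 2 and 4 for none. Replicate 3 was the highest library for 34 genes and replicate 1 for the other 7, and replicate 4 was the lowest for 31 and replicate 2 for 10. The mean of log2(RPKM + 0.5) over the 41 genes was 4.26, 3.39, 4.39 and 3.29 in set A, against 2.86, 2.58, 2.64 and 2.61 in set B. In unwounded vehicle skin replicate 3 was highest for 26 genes and replicate 2 for 15, while replicate 4 was lowest for 33. The other groups were less uniform. Set B replicate 1 was above the set's mean for 40 genes, but replicates 2 to 4 for 12, 20 and 10. Unwounded tamoxifen replicates 2 to 4 were above their group's mean for 12, 26 and 31 genes. The median SD of log2(RPKM + 0.5) over the 41 genes was 0.178 for the unwounded tamoxifen libraries, 0.333 for the unwounded vehicle ones, 0.193 for set B and 0.592 for set A, against 0.131, 0.0968, 0.101 and 0.154 over all genes tested in the same order of groups. The within-group spread of these genes was thus larger than that of the median gene in all 4 groups, and most so in set A. Since limma was fitted with 1 spread per gene over the 4 groups, the SEs above do not follow these differences between groups.

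**Figure D4:**
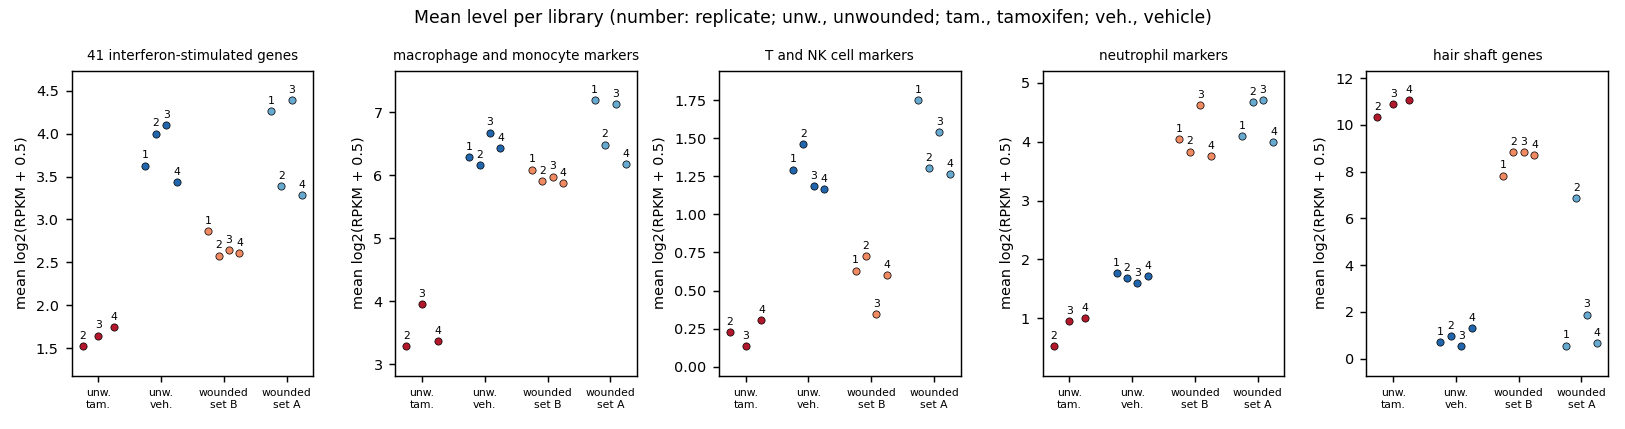
Mean of log2(RPKM + 0.5) per library over the 41 interferon-stimulated genes and over the marker lists of macrophages and monocytes, T and NK cells, neutrophils and the hair shaft, with the replicate number beside each point. The 41 genes and the macrophage list are both lowest in unwounded tamoxifen skin, and set A replicates 1 and 3 are highest in both.

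Markers of several cell types moved with the same groups. Of the 12 macrophage and monocyte markers, 11 were lower with tamoxifen in unwounded skin and 5 were lower in set B than in set A, and the counts of this and the next lists stand beside 34.7% and 15.6% of all genes tested that were lower in these comparisons. Within set A the mean of log2(RPKM + 0.5) over this list was 7.19, 6.48, 7.13 and 6.17 in replicates 1 to 4, with the same pair of libraries on top as for the 41 genes. The T and NK cell list had that pair on top too (1.75, 1.31, 1.54 and 1.27). In set B replicate 1 was highest for macrophages and monocytes and for the 41 genes. In unwounded vehicle skin the order differed: macrophages and monocytes had 6.28, 6.16, 6.67 and 6.43 in replicates 1 to 4. The 41 genes had 3.63, 4.001, 4.10 and 3.43 there. In unwounded tamoxifen skin replicate 3 was highest for macrophages and monocytes and replicate 4 for the 41 genes. The 11 dendritic and Langerhans cell markers summed to 633 to 984.9 RPKM in unwounded tamoxifen skin against 3841 to 4764 RPKM in unwounded vehicle skin, and 726 to 1178 RPKM in set B against 1807 to 2928 RPKM in set A. Of the 10 of these that passed the filter, 9 were lower and 1 was higher in both comparisons. The 11 T and NK cell markers summed to 8.15 to 11.4 RPKM in unwounded tamoxifen skin against 32.5 to 39.8 RPKM in unwounded vehicle skin, and 10.2 to 14.8 RPKM in set B against 27.4 to 37.8 RPKM in set A, and 7 of the 8 that passed the filter were lower in each comparison.

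Plasmacytoid dendritic cells are a known source of type I interferon, and of their 5 markers 2 passed the filter, Siglech and Cox6a2. The 5 summed to 32.3 to 78.0 RPKM in unwounded tamoxifen skin against 93.6 to 161 RPKM in unwounded vehicle skin, and 17.6 to 35.9 RPKM in set B against 17.0 to 52.7 RPKM in set A. Siglech averaged 0.470 ± 0.0619 RPKM in unwounded tamoxifen skin and 2.40 ± 0.558 RPKM in unwounded vehicle skin, and 1.20 ± 0.285 RPKM in set B and 3.19 ± 0.943 RPKM in set A. The sums therefore rest almost wholly on Cox6a2 and do not stand for the markers of these cells as a set. From unwounded vehicle skin to set A the sums were lower while the mean of Siglech was higher. The 4 B cell markers summed to at most 2.75 RPKM in any library, and Ms4a1, which encodes CD20, was at 0 in the unwounded tamoxifen libraries. The 9 neutrophil markers, which summed to 16.8 to 40.2 RPKM in unwounded tamoxifen skin and 77.0 to 113 RPKM in unwounded vehicle skin, reached 965 to 1683 RPKM in set B and 1428 to 3250 RPKM in set A. Of the neutrophil markers, Ngp was at 0 in both unwounded groups and Ly6g in the unwounded tamoxifen group. The 10 hair shaft and inner root sheath genes went the other way, and Krt71, Krt25, Krt27 and Tchh among them belong to the inner root sheath. They were higher in 10 of 10 cases with tamoxifen in unwounded skin and in set B against set A. Of all genes tested, 34.7% and 15.5% were higher in these comparisons. The 8 keratinocyte markers summed to 4395 to 5251 RPKM in unwounded tamoxifen skin and 7062 to 8298 RPKM in unwounded vehicle skin, and to 8930 to 10389 RPKM in set B and 7474 to 14254 RPKM in set A. The 6 fibroblast markers summed to 1355 to 3120 RPKM in unwounded tamoxifen skin and 3766 to 7268 RPKM in unwounded vehicle skin, and to 2180 to 3064 RPKM in set B and 3138 to 5521 RPKM in set A. The 6 endothelial markers summed to 30.9 to 38.0 RPKM in unwounded tamoxifen skin and 69.0 to 74.1 RPKM in unwounded vehicle skin, and to 77.4 to 90.7 RPKM in set B and 103 to 134 RPKM in set A. All 6 of each of these lists were lower with tamoxifen in unwounded skin. The part of these cell types and of the hair shaft and inner root sheath in the differences of the 41 genes was not tested.

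Interferon transcripts themselves were hardly detected. None of the 14 ligand genes in the table passed the filter, 4 of them (Ifna2, Ifna4, Ifna5 and Ifna12) were at 0 in all 15 libraries, and the highest value of any ligand in any library was 0.284 RPKM (Ifnz). Summed over the 14, the level was 0.0481 to 0.192 RPKM in unwounded tamoxifen skin against 0.198 to 0.362 RPKM in unwounded vehicle skin, and 0.0707 to 0.156 RPKM in set B against 0.172 to 0.441 RPKM in set A. No test was run on these values, and a low level at the time of sampling does not bear on earlier times.

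All 13 receptor chains, kinases, STATs and inhibitors looked up in the table passed the filter. The counts of this list and of the next 2 are to be read against the shares of all genes tested: 34.7% higher and 34.7% lower with tamoxifen in unwounded skin, 15.5% and 15.6% in set B against set A, 25.9% and 28.9% in set B against unwounded tamoxifen skin, and 20.4% and 19.4% in set A against unwounded vehicle skin. Of the 13, 11 were lower and 1 was higher with tamoxifen than with vehicle in unwounded skin, with a median log2 difference of -0.92. Ifngr1, a chain of the interferon gamma receptor, averaged 28.0 ± 0.947 RPKM with tamoxifen and 69.2 ± 6.07 RPKM with vehicle (-1.29 ± 0.08, adjusted p = 4.58e-08). The kinases Jak1 (-1.14 ± 0.10, adjusted p = 4.5e-07) and Tyk2 (-0.77 ± 0.06, adjusted p = 2.83e-07) were lower too. Ifnlr1, the specific chain of the type III receptor, which is found mainly on epithelial cells, was the gene that was higher (0.29 ± 0.11, adjusted p = 0.0333). Between the wounded sets 5 of the 13 were lower in set B and 1 was higher, again Ifnlr1 (0.39 ± 0.10, adjusted p = 0.0114), while Ifngr1 was lower (-0.66 ± 0.08, adjusted p = 7.08e-05). Against unwounded tamoxifen skin 10 of the 13 were higher in set B and 1 was lower, and the rises included Stat3 (1.29 ± 0.09, adjusted p = 1.17e-07), a STAT that answers mainly to interleukins. In set A against unwounded vehicle skin 6 were higher and 2 lower, with Socs3, a feedback inhibitor of cytokine receptors, at 1.49 ± 0.21 (adjusted p = 0.000110).

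Among 16 regulatory factors and upstream sensing genes, 15 were lower and 1 was higher in unwounded skin given tamoxifen, with a median log2 difference of -1.01. Irf8, a factor of myeloid and dendritic cells, averaged 2.11 ± 0.261 RPKM with tamoxifen and 14.1 ± 1.14 RPKM with vehicle (-2.48 ± 0.15, adjusted p = 3.16e-08). Tmem173, which encodes STING, the adaptor of cytosolic DNA sensing, differed by -1.75 ± 0.11 (adjusted p = 4.1e-08), and the DNA sensor Aim2 by -1.42 ± 0.11 (adjusted p = 1.98e-07). Irf3, the factor that first induces interferon beta, was the gene that was higher (0.33 ± 0.08, adjusted p = 0.00194). Between the wounded sets 11 were lower in set B and none was higher. In set B against unwounded tamoxifen skin 12 were higher and 1 was lower, and in set A against unwounded vehicle skin 5 were higher and 1 was lower, with Myd88 at 0.65 ± 0.09 (adjusted p = 7.62e-05) and Tmem173 at 0.56 ± 0.10 (adjusted p = 0.000858).

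A list of 59 further interferon-induced genes, of which 58 were in the table and passed the filter, was counted in the same way. With tamoxifen 56 of the 58 were lower in unwounded skin and none was higher (median log2 difference -1.51), and 43 of the 58 were lower in set B than in set A with none higher (median -0.79). Slfn2, a regulator of T cell and monocyte quiescence in mice, averaged 4.22 ± 1.04 RPKM with tamoxifen and 39.9 ± 0.562 RPKM with vehicle in unwounded skin (-3.12 ± 0.20, adjusted p = 4.4e-08). Ly6e, a surface protein that blocks entry of some coronaviruses, averaged 98.4 ± 11.5 RPKM with tamoxifen and 527 ± 40.0 RPKM with vehicle (-2.42 ± 0.15, adjusted p = 2.76e-08). In set B against unwounded tamoxifen skin 43 of the 58 were higher and none lower. In set A against unwounded vehicle skin 5 were higher and 4 lower.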

How the data were processed

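Mouse skin RNA was measured by RNA sequencing in 15 libraries. The deposited gene values are RPKM, which per the file headers were made by mapping to mm10 with TopHat and quantifying with Partek; per the submitters' processing notes the mapper was TopHat2 2.1.0, after bcl2fastq. Per the labels' protocols, RNA came from Trizol and RNeasy extraction and libraries from NEBnext and NuGen kits, and no source used here gives the kit of each library, the annotation or the strand setting. A deposited sample sheet gives counts of alignments (39277860 to 75102345 per library) and of gfp reads. The authors' own table of tests was not used here.

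The 41 genes, the other gene lists and the tests were chosen with earlier results of these data known. Genes given library by library were named by role, with the 3 largest called changes of each comparison and, in the other lists, the 3 smallest p-values. Dhx58, Isg20, Ifit2, Herc6, Ifi44, Mx2, Gbp7, Irgm1, Ifnlr1, Irf3, Socs3 and genes cited for a lost call were added after their values were seen. Cell type markers were lists for 10 cell types or structures.

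RPKM values were tested as log2(RPKM + 0.5) with limma 3.58.1 (R 4.3.3, mean-variance trend) in 1 model of 4 groups over the 13922 genes with at least 1 RPKM in at least 3 libraries, two-sided, with Benjamini-Hochberg adjustment over all of them and a threshold of 0.05. The fit was first tested on simulated data, with independent libraries and the spread of the unwounded vehicle group in every group. That test does not cover groups of unequal spread, as seen here. The 6 comparisons share libraries. Fold changes of low genes are understated on this scale. Figures and summaries used Python 3.11.15, numpy 2.4.6, pandas 2.3.3 and matplotlib 3.10.9. Promoters came from RefSeq (GRCm38.p6), and gene spans from GENCODE M21.

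The sample records and the gene table give opposite treatment names to the 8 wounded libraries, so these were kept as set B and set A, and the records' naming was run as an alternative. Same-numbered libraries of set A and set B deviated together (correlations of 0.430, 0.135, 0.123 and 0.220 over genes, all above 0.1), so the numbers were taken to pair these sets; in the other 5 pairs of groups they were not. Other alternatives were pseudocounts of 0.1 and 1, no filter, median-of-ratios scaling, array weights, the replicate number as a block, fits of only the groups compared, and each library left out.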

Additional observations from a re-analysis of the deposited data

Results flagged for a closer look

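In 75 groups of 4 libraries tested for a library far from the rest, chance alone gives about 1 in 20, and 2 were found. Oas1a had 12.4 RPKM in wounded set B replicate 1, with a gap of 0.835 of the set's range to the next library, and Rtp4 had 14.96 RPKM in the same library, with a gap of 0.844 of the range, both above the critical value of 0.829.

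For 21 genes the wound difference of set B (against unwounded tamoxifen skin) differed from that of set A (against unwounded vehicle skin) by the limma test of the difference itself. On the log2 scale the values were 2.07 for Oas1a, 1.94 for Oasl2, 1.80 for Oas3, 1.74 for Oas2, 1.51 for Oasl1, 1.37 for Bst2, 1.17 for Isg15 and 0.98 for Eif2ak2 among the effectors. Among the sensors they were 1.58 for Zbp1, 1.42 for Dhx58, 0.77 for Ddx58 and 0.73 for Ifih1, and among the signalling genes 0.89 for Stat2 and 0.89 for Irf9. The rest were 1.91 for Trim30a, 1.66 for Rtp4, 1.505 for Ifi27l2a, 1.09 for Parp14, 1.03 for Parp9, 0.73 for Ifi35 and, the GTPase among them, 0.72 for Gbp7.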

How the results depend on the processing

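No single gene that was called changed sign within a comparison in the single-gene fits counted below. In set A against unwounded vehicle skin, where no gene of the 41 passed, 6 were higher with array weights, a fit that stopped before its tolerance was reached, and 1 was higher with the replicate block; leaving out 1 library gave 0 to 3 higher and 0 to 1 lower. With the wounded libraries under the names of the sample records, the vehicle comparison became set B against unwounded vehicle skin, with 38 lower, the tamoxifen comparison became set A against unwounded tamoxifen skin, with 40 higher, and the difference of wound differences was positive for 41 genes in place of 21. Leaving out 1 library gave 39 to 41 lower with tamoxifen in unwounded skin, 33 to 41 lower in set B than in set A, 25 to 33 higher in set B than in unwounded tamoxifen skin, 23 to 30 higher over both wounded sets and 17 to 28 positive differences of wound differences. With the replicate number as a block over all 15 libraries, also across groups not taken as paired, 39 genes were lower in set B. With only sets A and B in the fit, where pairing was taken to hold, 35 were lower by limma. That alternative was chosen after seeing the data. The genes lost were Gbp2 (adjusted p = 0.0527), Oasl1 (0.0703), Zbp1 (0.0617) and Trim30a, which the block had added. In the pairs of groups that share only a number, the block gave 39 lower with tamoxifen in unwounded skin, without Iigp1 (0.0642) and Isg20 (0.0662). Values of single genes were counted under the pseudocounts, median-of-ratios scaling, the replicate block and each library left out. Of these 3629 values, 3534 kept their side of the threshold, 69 lost and 26 gained a call, and 57 uncalled values changed sign. Many of these fits left out a library of a group not compared. Array weights, no filter, fits of only the groups compared and the records' naming were not in this count. Levels near or under 0.5 RPKM, as for Mx1 and Rsad2 with tamoxifen, are limited by the pseudocount.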

Other observations

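Among further interferon-related genes, Ifitm1, Ifi205 and Socs3 rose in the wounds of both sets. Ifitm1, a membrane protein that hinders viral entry, averaged 58.6 ± 18.3 RPKM in wounded set B and 3.75 ± 0.629 RPKM in unwounded tamoxifen skin (SD, n = 4 and 3), a log2 difference of 3.76 ± 0.20 (adjusted p = 1.88e-08, limma). In set A it averaged 63.0 ± 13.2 RPKM against 7.92 ± 0.653 RPKM in unwounded vehicle skin (2.89 ± 0.19, adjusted p = 1.93e-07). Ifi205, a member of the family of intracellular DNA-binding proteins that includes Aim2, averaged 48.4 ± 6.99 RPKM in set B and 12.4 ± 3.02 RPKM in unwounded tamoxifen skin (1.93 ± 0.19, adjusted p = 2.8e-06), and 66.3 ± 18.5 RPKM in set A and 31.8 ± 2.51 RPKM in unwounded vehicle skin (1.01 ± 0.18, adjusted p = 0.000616). Socs3, the inhibitor of cytokine receptors, averaged 43.5 ± 12.98 RPKM in set B and 10.9 ± 0.968 RPKM in unwounded tamoxifen skin, and rose by 1.90 ± 0.23 on the log2 scale (adjusted p = 1.16e-05). Ifitm1 and Socs3 did not pass the threshold between the wounded sets (-0.13 ± 0.19, adjusted p = 0.646, and 0.19 ± 0.21, adjusted p = 0.519). Cxcl10, the interferon-induced chemokine that draws T cells, averaged 4.65 ± 0.977 RPKM in set B and 17.8 ± 8.01 RPKM in set A (-1.74 ± 0.38, adjusted p = 0.00386). It averaged 3.18 ± 1.99 RPKM in unwounded tamoxifen skin and 7.21 ± 2.81 RPKM in unwounded vehicle skin (-1.09 ± 0.41, adjusted p = 0.0303), and set A was higher than unwounded vehicle skin (1.24 ± 0.38, adjusted p = 0.0198), which no gene of the 41 was. The SDs of Cxcl10 in set B and in unwounded tamoxifen skin overlapped. These 4 genes were picked with the 3 lists' values known.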
